A study of Homo sapiens with 6 samples.

Results

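Transcripts of the FOXO transcription factors and of genes that FOXO factors raise were followed in T24, an established cell line of human bladder cancer, after knockdown of MTHFD2, a folate enzyme of mitochondria. The group held 10 genes chosen by symbol: the factors FOXO1, FOXO3 and FOXO4, and the targets CCNG2, KLHL24, BCL6, FBXO32, CITED2, IRS2 and RBL2. All 10 had a row among the 54261 symbols of the count table, and all 10 were among the 13896 genes with enough reads to test. In 3 libraries the cells carried a ZsGreen and puromycin lentivirus encoding a hairpin RNA against MTHFD2, the one the titles number 2. In the other 3 the cells carried the empty ZsGreen and puromycin virus as negative control. Both kinds of cell were kept under puromycin selection. A single hairpin is represented, and the labels do not say whether the replicates were separate cultures, so each p-value reflects only how these samples scatter, and that scatter may be technical.

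FOXO factors are forkhead transcription factors that switch on genes of cell cycle arrest, cell death, stress resistance, autophagy and insulin signalling. When growth factors activate PI3K, the kinase AKT phosphorylates FOXO proteins, and these then leave the nucleus and bind scaffold proteins in the cytoplasm. With AKT active the target genes are therefore restrained, and with AKT inactive their transcripts can rise. The series asks how MTHFD2 bears on PI3K and AKT signalling, and transcripts of FOXO targets are one readout of that pathway at the RNA level. Transcript levels of the factors themselves say nothing of where their proteins are.

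To show the DNA that such factors read, promoter windows of the listed genes were taken from RefSeq (GRCh38.p14), from 250 bases before to 50 bases after each annotated start, written 5′ to 3′ on the strand of the gene. Windows of 9 of the 10 genes were used, 16 in all. FBXO32 was not searched, so its absence here says nothing of its promoter. Searched on both strands were GTAAACA, the consensus that FOXO proteins prefer, CAAAACA, the core of the insulin response element, and TGTTT, a core within the reverse complement of each, so that every match of a longer motif is also a match of TGTTT. Of the 16, 5 are shown, chosen after the matches were seen: those of FOXO4, KLHL24 and IRS2 as the windows with a longer motif, that of FOXO1 as the other factor that rose, and one of BCL6 for its run of short cores. Capitals mark every match of the 3 motifs.
FOXO1: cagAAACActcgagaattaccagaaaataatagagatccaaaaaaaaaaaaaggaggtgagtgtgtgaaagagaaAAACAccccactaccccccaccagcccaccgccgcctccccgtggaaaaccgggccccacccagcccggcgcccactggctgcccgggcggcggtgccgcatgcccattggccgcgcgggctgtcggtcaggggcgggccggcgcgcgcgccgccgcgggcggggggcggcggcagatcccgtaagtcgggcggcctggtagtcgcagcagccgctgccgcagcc
FOXO4: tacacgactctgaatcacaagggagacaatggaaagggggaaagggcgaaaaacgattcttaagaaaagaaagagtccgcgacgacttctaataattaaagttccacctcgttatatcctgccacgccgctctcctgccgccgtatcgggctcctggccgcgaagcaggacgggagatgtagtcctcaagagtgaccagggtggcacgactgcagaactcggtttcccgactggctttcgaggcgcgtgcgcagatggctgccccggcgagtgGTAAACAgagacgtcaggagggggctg
KLHL24: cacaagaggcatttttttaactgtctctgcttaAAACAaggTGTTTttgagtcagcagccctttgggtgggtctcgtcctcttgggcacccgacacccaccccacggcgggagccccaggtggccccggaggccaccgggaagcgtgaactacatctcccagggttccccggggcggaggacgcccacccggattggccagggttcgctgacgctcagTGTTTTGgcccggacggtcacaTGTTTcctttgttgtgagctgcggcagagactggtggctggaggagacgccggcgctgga
BCL6: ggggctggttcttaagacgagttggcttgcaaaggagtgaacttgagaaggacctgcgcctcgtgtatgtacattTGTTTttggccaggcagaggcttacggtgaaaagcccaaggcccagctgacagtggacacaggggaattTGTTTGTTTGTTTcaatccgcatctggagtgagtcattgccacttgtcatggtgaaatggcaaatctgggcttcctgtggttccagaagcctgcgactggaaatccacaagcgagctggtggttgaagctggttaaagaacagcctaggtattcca
IRS2: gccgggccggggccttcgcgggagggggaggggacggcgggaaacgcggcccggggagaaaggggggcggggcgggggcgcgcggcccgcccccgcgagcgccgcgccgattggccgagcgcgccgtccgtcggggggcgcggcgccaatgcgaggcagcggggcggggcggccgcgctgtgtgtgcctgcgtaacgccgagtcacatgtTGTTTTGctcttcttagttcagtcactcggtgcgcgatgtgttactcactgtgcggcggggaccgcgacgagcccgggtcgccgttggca

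The FOXO1 window lies at chr13:40666592-40666891 on the minus strand and holds the short core at 2 places. The FOXO4 window, at chrX:71095601-71095900 on the plus strand, holds the full GTAAACA consensus, beginning 24 bases after the annotated start. KLHL24, at chr3:183635373-183635672 on the plus strand, and IRS2, at chr13:109786534-109786833 on the minus strand, each hold 1 match of the insulin response core, beginning 32 and 40 bases before the start. The BCL6 window, at chr3:187736452-187736751 on the minus strand, is the second of its 2 windows and carries 4 short cores, 3 of them in a run.

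GTAAACA occurred in 3.42% of all 35116 RefSeq windows and CAAAACA in 4.92%. The short core stood in 44.4% of all windows and in 11 of the 16 windows of the listed genes. A match is a description of the letters, and no match says only that these letters are not in the window. KLHL24 and IRS2 carry the same 7-letter core at a similar distance from the start, and in the test of their transcripts KLHL24 rose and IRS2 did not pass.

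Library totals ran from 17801990 to 19978392 counts, so that 3 counts equal 0.149 to 0.171 CPM. Floors and intervals of this kind cover counting error only. Keratins KRT8, KRT18 and KRT7 were abundant, but KRT8 fell by 1.27 ± 0.13 and KRT18 by 0.89 ± 0.13 on the log2 scale (SE; edgeR adjusted p = 0.000191 and 0.00157). Summed, the 6 epithelial markers were at 1300, 983 and 1165 CPM in knockdown replicates 1 to 3, against 2095, 2086 and 2494 CPM in the controls. The epithelial markers EPCAM, CDH1 and KRT19 held at most 11 counts in any library. Of 8 urothelial markers, UPK3A and KRT20 were at 0 in all libraries and 3 were tested. UPK1A rose from a low level (log2 fold change 1.72 ± 0.40, SE; edgeR adjusted p = 0.0141). Only the knockdown libraries gave UPK1A enough reads to test, so it could be tested only as a rise. PPARG, at 16.5 CPM in the knockdown and 16.0 CPM in the control libraries, did not pass, nor did UPK1B. Summed, the 8 were at 20.1 to 23.4 CPM in the knockdown and 20.9 to 22.4 CPM in the control libraries. Of 12 fibroblast markers, 8 were tested and 5 rose, where 9.71% of all genes tested were called higher. Among these 5, SPARC and DCN had enough reads to test only through the knockdown libraries. The summed level of the 12 was 76.6, 48.0 and 66.7 CPM in knockdown replicates 1 to 3, against 28.3, 32.1 and 24.7 CPM in the controls, and none of the 12 was at 0 throughout. In knockdown replicate 2, FBN1, which did not pass, alone stood at 35.0 CPM. COL1A2, 1 of the 5 that rose, was there at 1.56 CPM, within the 1.37 to 1.66 CPM of the controls. The rest of the 5 lay above every control in that library too. Leukocyte markers, given because BCL6 is known from B cells, summed to 2.73 to 4.28 CPM in the knockdown and 3.36 to 3.53 CPM in the control libraries. Of these 7 markers 2 had enough reads to test, neither passed, and CD3E held at most 1 count. In bulk RNA, fewer cells expressing a gene and less RNA per cell cannot be told apart.

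Across the 10 genes, 6 rose after knockdown, 1 fell and 3 did not pass the test (edgeR quasi-likelihood test, Benjamini-Hochberg adjusted p under 0.05 over all genes tested). Over all genes tested, 17.3% passed in either direction, 9.71% higher in the knockdown libraries and 7.58% lower. Without control replicate 1, 4 of the 10 rose and none fell, and without control replicate 3, 3 rose and none fell. The genes passing over all tested numbered 1003 (7.03%) and 986 (6.92%) in these fits. They numbered 1469 (10.4%) without knockdown replicate 2 and 2402 with every library. The median log2 fold change of the 10 was 0.70, against 0.01 over all genes tested. The genes were listed with earlier results of these data known, so the count describes them and is not independent evidence. Values below are CPM, the reads of a gene relative to the TMM-scaled size of its library, and the values of each group are those of its replicates 1 to 3.

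**Figure D1:**
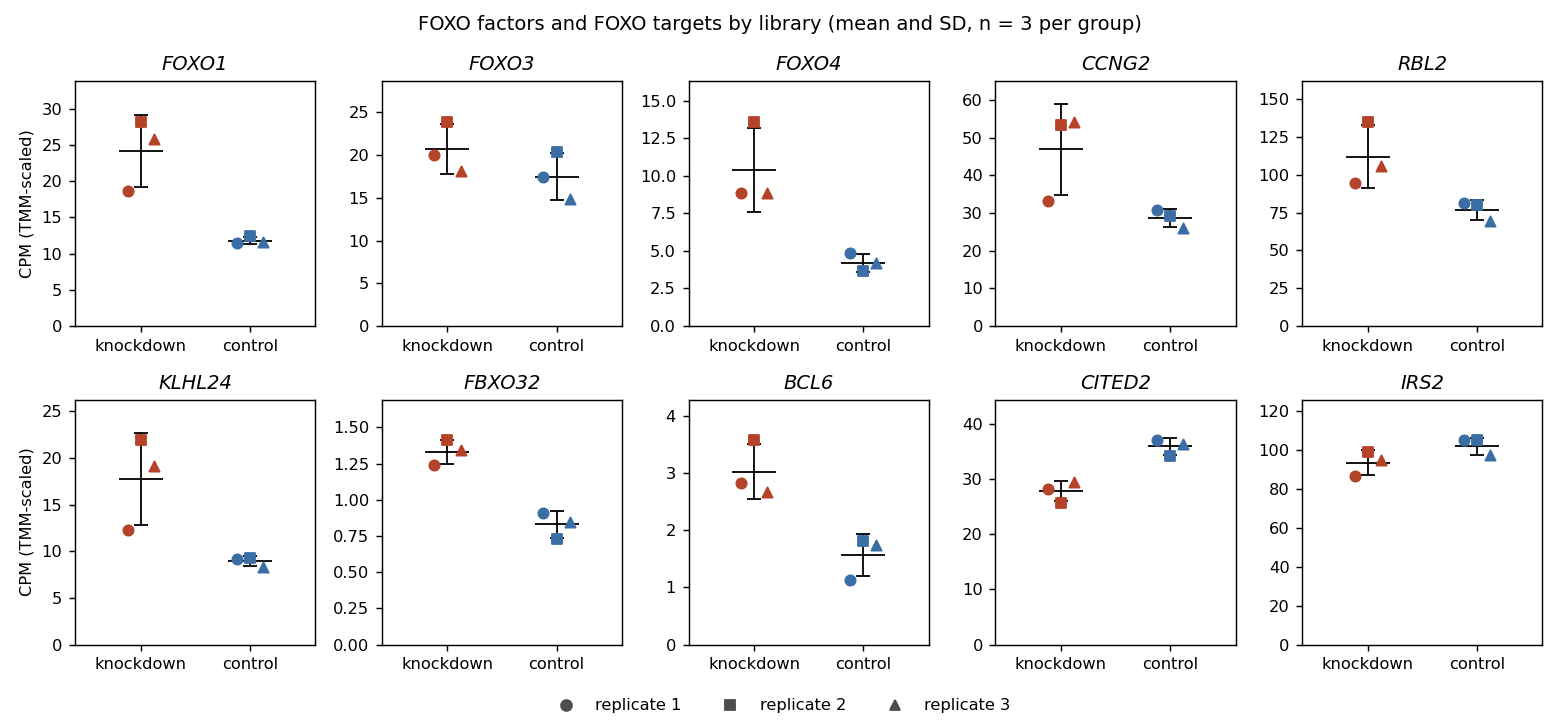
CPM on TMM-scaled library sizes (y axis, from 0) of each of the 10 genes in the 3 knockdown and 3 control libraries. Points are libraries, shaped by replicate number, and bars are the mean and SD. In 7 genes all knockdown libraries lie above all controls, in CITED2 all lie below, and in FOXO3 and IRS2 the groups overlap. Over all genes tested, 20.1% lie wholly above the controls and 19% wholly below.

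Among the factors, FOXO1 and FOXO4 transcripts were about doubled in knockdown cells and FOXO3 did not pass the test. FOXO1, the factor best known for insulin-regulated gene expression in liver, had 18.6, 28.2 and 25.8 CPM in the knockdown libraries, against 11.5, 12.4 and 11.6 CPM in the control libraries. Every knockdown library lay above every control, and replicate 1 was the lowest of the 3. The log2 fold change came to 1.03 ± 0.16 (SE), at an edgeR adjusted p of 0.00202, a 2.05-fold difference. It passed under all 14 alternatives, between 0.91 and 1.25. FOXO1 lies at chr13:40469953-40666597 (GRCh38, GENCODE 29, minus strand), and the noncoding gene LINC00598 on the same strand shares 269 bases of its exons.

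FOXO4, an X-linked member of the family, had 8.84, 13.6 and 8.83 CPM in the knockdown libraries, against 4.84, 3.64 and 4.19 CPM in the control libraries. Its groups did not overlap either, and knockdown replicate 2 stood above the other two. The log2 fold change came to 1.31 ± 0.21 (SE), at an edgeR adjusted p of 0.00259, or 2.48-fold, the largest of the 10. FOXO4 lies at chrX:71096197-71103535 on the plus strand and also passed under all 14 alternatives, between 1.07 and 1.69. FOXO1 and FOXO4 were the listed genes that both passed and were at least 2-fold higher, which 2.82% of all genes tested were.

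FOXO3, a factor tied to cell death and to stress resistance, had 20.0, 23.9 and 18.2 CPM in the knockdown libraries, against 17.4, 20.4 and 14.9 CPM in the control libraries. The groups overlapped. Its log2 fold change was 0.24, with a 95% interval from -0.08 to 0.57 (edgeR adjusted p = 0.278), so a rise of up to that size is not excluded by this interval. FOXO3B, a processed pseudogene of FOXO3 on chromosome 17, held 148, 113 and 83 counts in the knockdown libraries, against 98, 132 and 98 counts in the control libraries. Those reads made up 19.2% to 26.9% of the reads of both loci in the knockdown libraries and 24.3% to 25.9% in the control libraries, and the copies are close enough that the counting could have split reads between them. With both rows summed, a setting chosen after the data were seen, the log2 fold change was 0.18 (edgeR adjusted p = 0.399). FOXO6, the other family member, held at most 1 count in any library, below the 3 counts that a count of 0 allows.

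Per kilobase of exon, the 3 factors were of similar abundance. FOXO1 was at 3.89 ± 0.803 CPM per kb in the knockdown and 1.90 ± 0.0748 in the control libraries (SD, n = 3 each). FOXO4 was at 3.03 ± 0.806 CPM per kb in the knockdown and 1.22 ± 0.175 in the control libraries, and FOXO3 at 2.68 ± 0.376 CPM per kb in the knockdown and 2.27 ± 0.354 in the control libraries. In the control libraries FOXO3 led, FOXO1 followed and FOXO4 was lowest. The FOXO3 and FOXO1 levels there overlapped between libraries, while FOXO4 lay below both in each. In the knockdown libraries FOXO1 stood above FOXO3 in each library, and FOXO3 and FOXO4 overlapped. These levels leave out reads counted at FOXO3B, which stood at 7.35 CPM in knockdown replicate 1, beside 20.0 CPM at FOXO3. The order of the factors there thus depends on how reads were split between these loci.

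Summed over the 3 factors, the level was 8.14, 11.6 and 9.06 CPM per kb in the knockdown libraries, against 5.50, 5.68 and 5.01 CPM per kb in the control libraries. FOXO3 made up 28.2% ± 3.15 of that sum in the knockdown and 42.0% ± 4.07 in the control libraries (SD, n = 3 each). Within a library, the ratio of FOXO1 to FOXO3 was 1.15, 1.46 and 1.75 in the knockdown group, against 0.821, 0.752 and 0.966 in the control group. These ratios did not overlap (exact two-sided permutation p = 0.1, the smallest that 3 against 3 libraries can give; 0.1 adjusted over 5 such ratios chosen after the data were seen). By the FOXO3 row alone, the transcript mix therefore held a smaller share of FOXO3 in every knockdown library than in any control. Reads counted at FOXO3B are left out of these sums, shares and ratios.

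**Figure D2:**
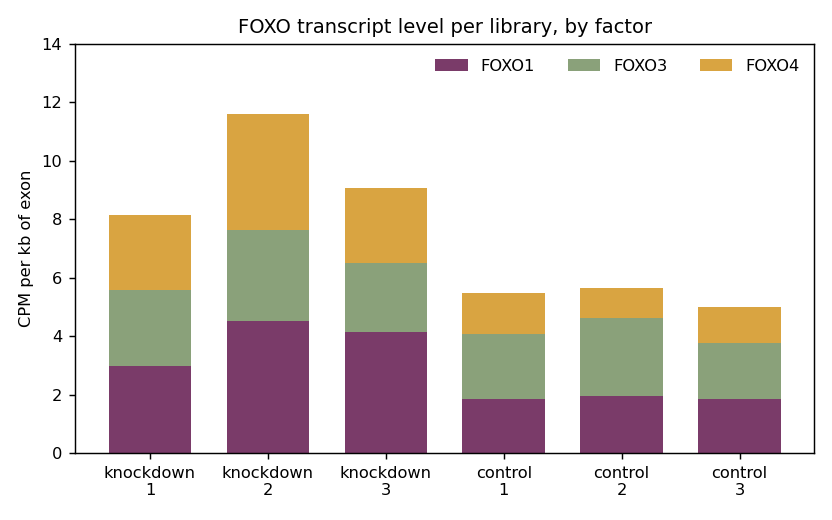
Stacked bars of FOXO1, FOXO3 and FOXO4 transcript levels (CPM per kb of exon, y axis from 0) in each library, knockdown libraries on the left. The summed height is 8.14 to 11.6 in knockdown libraries and 5.01 to 5.68 in controls, with FOXO1 and FOXO4 taking up most of the difference.

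The targets that restrain the cell cycle both rose. CCNG2 encodes cyclin G2, an unconventional cyclin that slows proliferation and that FOXO factors induce. It had 33.1, 53.4 and 54.2 CPM in the knockdown libraries, against 30.7, 29.3 and 25.9 CPM in the control libraries. Replicate 1 of the knockdown group stood only just above the highest control, and replicates 2 and 3 were well above. The log2 fold change came to 0.71 ± 0.17 (SE), at an edgeR adjusted p of 0.0168. The call was lost without control replicate 3, at a log2 fold change of 0.64 (edgeR adjusted p = 0.0667).

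RBL2 encodes a pocket protein of the retinoblastoma family that represses E2F genes in resting cells. It was at 94.9, 135 and 106 CPM in the knockdown libraries, against 81.1, 80.2 and 69.3 CPM in the control libraries, with no overlap. Its log2 fold change came to 0.54 ± 0.13 (SE), at an edgeR adjusted p of 0.0183. The call was lost without control replicate 1 (0.58, edgeR adjusted p = 0.0536) and without control replicate 3 (0.47, edgeR adjusted p = 0.081). RBL2 shares 610 bases of exon with AKTIP, a gene on the opposite strand, and since the strand setting of the counting is not given in the sources used here, reads there could belong to either gene.

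The other pocket proteins did not pass. RBL1 was at 59.1, 62.6 and 52.3 CPM in the knockdown libraries, against 59.8, 61.6 and 48.3 CPM in the control libraries (log2 fold change 0.04, 95% interval -0.23 to 0.30; edgeR adjusted p = 0.862). RB1 had a log2 fold change of 0.25 (95% interval 0.00 to 0.50; edgeR adjusted p = 0.155). Per kilobase, RBL2 stood at 1.31, 1.76 and 1.65 times RBL1 in the knockdown libraries, against 1.10, 1.06 and 1.17 times in the control libraries (exact two-sided permutation p = 0.1, the smallest possible here).

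Of the targets that serve ubiquitin ligases, KLHL24 rose and FBXO32 did not pass. KLHL24 encodes an adaptor of CUL3 ligases that marks keratin for degradation in skin. It had 12.3, 21.9 and 19.2 CPM in the knockdown libraries, against 9.22, 9.24 and 8.33 CPM in the control libraries. The groups did not overlap, and replicate 1 was again the lowest knockdown library. Its log2 fold change came to 0.99 ± 0.19 (SE), at an edgeR adjusted p of 0.00642, or 1.99-fold, and it passed under all 14 alternatives with values from 0.76 to 1.28.

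FBXO32 encodes atrogin, a ligase subunit known as a FOXO target in wasting muscle. It held 25, 28 and 25 counts in the knockdown libraries, against 16, 14 and 16 counts in the control libraries. All knockdown libraries were higher, which held for 20.1% of all genes tested (all lower in 19%). The log2 fold change was 0.68 with a 95% interval from 0.03 to 1.33, and after adjustment it did not pass (edgeR adjusted p = 0.135; 0.112 to 0.34 over the alternatives). It lay near 1 CPM in every library, and at these counts the interval is wide.

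The remaining targets are regulators of transcription and of insulin signalling, and they went different ways. BCL6, a transcriptional repressor of germinal centre B cells that FOXO factors also induce elsewhere, held 57, 71 and 50 counts in the knockdown libraries, against 20, 35 and 33 counts in the control libraries. In CPM that was 3.03 ± 0.481 in the knockdown and 1.57 ± 0.374 in the control libraries (SD, n = 3 each). The fitted log2 fold change came to 0.94 ± 0.26 (SE), at an edgeR adjusted p of 0.031. With these counts the call was lost without control replicate 1 (0.75, edgeR adjusted p = 0.129), control replicate 3 (1.02, 0.0734) or knockdown replicate 2 (0.80, 0.101). Antisense transcripts overlap BCL6 on the other strand and share 171 and 318 bases of exon with it.

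CITED2 encodes a coactivator that competes with hypoxia-inducible factor for its partner proteins. It was the listed gene that fell, at 28.2, 25.8 and 29.5 CPM in the knockdown libraries, against 37.1, 34.3 and 36.5 CPM in the control libraries. All 3 knockdown libraries lay below all controls. The log2 fold change came to -0.37 ± 0.11 (SE), at an edgeR adjusted p of 0.0377. Of the 6 fits with 1 library removed, 5 ended this call (each control, and knockdown replicates 1 and 2), with adjusted p-values from 0.0551 to 0.143 and log2 fold changes from -0.41 to -0.32. It remained with knockdown replicate 3 removed. A further antisense gene runs across CITED2 without sharing exon sequence.

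IRS2 encodes an adaptor that couples the insulin receptor to PI3K and is a textbook FOXO target in liver. At 86.9, 99.1 and 94.8 CPM in the knockdown libraries, against 105, 105 and 97.5 CPM in the control libraries, the groups overlapped. The log2 fold change was -0.13, with a 95% interval from -0.35 to 0.09 (edgeR adjusted p = 0.378). An increase of IRS2 beyond that upper bound lies outside the interval, and depth is not the limit, since each library held at least 1749 IRS2 counts.

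Its relative IRS1, named after its values were seen, did rise. It is also on the list of other genes FOXO factors raise, below, and is counted there too. IRS1 had 30.1, 39.0 and 28.5 CPM in the knockdown libraries, against 20.0, 16.7 and 16.2 CPM in the control libraries (log2 fold change 0.88 ± 0.15, SE; edgeR adjusted p = 0.00288). The ratio of IRS1 to IRS2, per kilobase, was 0.284, 0.321 and 0.246 in the knockdown libraries, against 0.155, 0.130 and 0.136 in the control libraries. IRS2 transcripts thus stayed the more abundant in all libraries, and the ratios of the groups did not overlap (exact two-sided permutation p = 0.1, the smallest possible here).

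**Figure D3:**
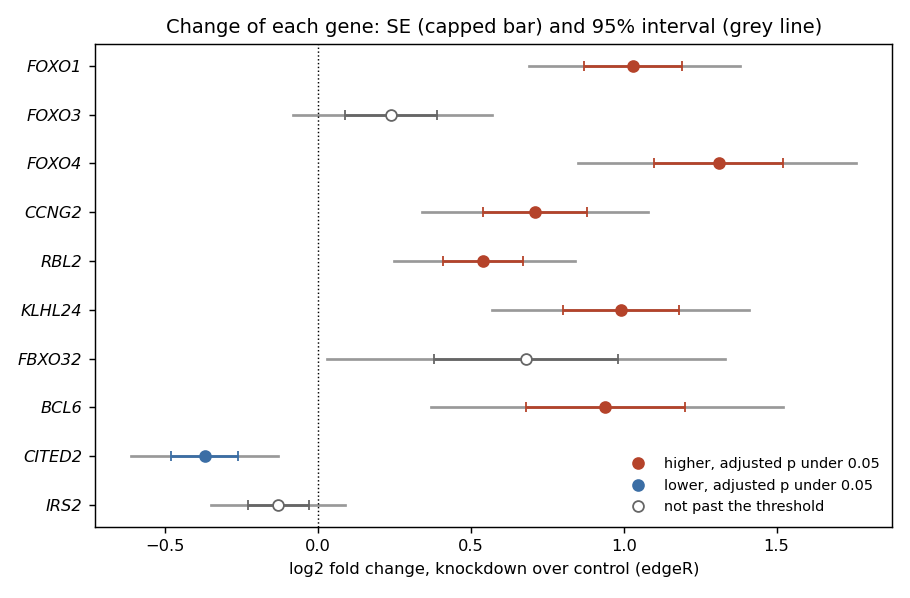
log2 fold change of each gene, knockdown over control (x axis), with the SE as capped bars and the 95% interval as grey lines. FOXO1, FOXO4, CCNG2, RBL2, KLHL24 and BCL6 are higher, CITED2 is lower, and FOXO3, FBXO32 and IRS2 are open circles that did not pass.

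Levels differed widely between the 10 genes. Per kilobase of exon, the control libraries held CITED2 at 14.2 ± 0.578, IRS2 at 12.6 ± 0.528 and RBL2 at 10.5 ± 0.895 CPM per kb (SD, n = 3), and these 3 did not overlap. CCNG2 followed at 3.84 ± 0.330, then the 3 factors, and KLHL24 at 1.03 ± 0.0604, whose libraries overlapped with those of FOXO4. BCL6 at 0.264 ± 0.0630 and FBXO32 at 0.112 ± 0.0126 CPM per kb were the lowest. In the knockdown libraries RBL2 led with 15.3 ± 2.86 CPM per kb, above IRS2 at 11.5 ± 0.765 and CITED2 at 11.0 ± 0.741, which overlapped. With the longest transcript as the length, RBL2 came first in the control libraries too, at 15.7 CPM per kb against 15.3 for CITED2, so the order of these depends on the length used.

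Within the knockdown group, replicate 2 was the highest of the 3 libraries for 8 of the 10 genes, as for 35.9% of all genes tested, and replicate 1 was the lowest for 6, as for 29.1% of all genes tested. The order was not one and the same: FOXO3, FOXO4 and BCL6 were lowest in replicate 3, CITED2 was lowest in replicate 2, and CCNG2 and CITED2 were highest in replicate 3. MTHFD2 itself, the target of the hairpin, had 538, 667 and 686 counts in the knockdown libraries, against 3241, 3613 and 3417 counts in the control libraries, a log2 fold change of -2.51 ± 0.13 (SE; edgeR adjusted p = 1.8e-06).

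With knockdown replicate 2 as the only knockdown library, which takes a single library to scatter as the controls do, the same 7 genes passed, in the same directions, while 30% of all genes tested passed. FOXO1 was then at 1.25 and FOXO4 at 1.69 on the log2 scale. Without knockdown replicate 2 they were at 0.91 and 1.07 and both still passed (edgeR adjusted p = 0.0016 and 0.00213). Knockdown replicate 2 was also the library of its group with the lowest summed fibroblast markers and the lowest summed epithelial markers. What part either has in these rises was not tested.

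Other genes that FOXO factors are known to raise gave a wider view. Of 46 with a row, 34 were tested, and 11 rose and 5 fell, which is 47.1% of those tested, against 17.3% of all genes tested. Their median log2 fold change was 0.29, against 0.01 over all genes tested. The list was drawn up with earlier results of these data known. Of the listed genes best known from liver or muscle, PCK1, G6PC and TRIM63 held at most 1 count, while PDK4, a kinase that restrains pyruvate oxidation, held 5, 34 and 14 counts in the knockdown libraries, against 4, 9 and 2 counts in the control libraries, and was too low to be tested.

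BMF, a cell death gene of the BCL2 family, had 5.41, 9.21 and 8.03 CPM in the knockdown libraries, against 1.65, 1.92 and 2.12 CPM in the control libraries (log2 fold change 1.99 ± 0.24, SE; edgeR adjusted p = 0.000524). The PI3K inhibitor gene PIK3IP1 rose by 1.34 ± 0.25. MXI1, an antagonist of MYC, had 20.6, 29.9 and 29.3 CPM in the knockdown libraries, against 11.0, 12.5 and 9.92 CPM in the control libraries (log2 fold change 1.25 ± 0.16; edgeR adjusted p = 0.000776). All 3 passed under all 14 alternatives. BCL2L11 and BBC3, further cell death genes on the list, did not pass (log2 fold change 0.31 and -0.12; edgeR adjusted p = 0.157 and 0.653).

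S1PR1, a receptor for sphingosine phosphate, held 11, 13 and 10 counts in the knockdown libraries, against 1 in each control library. It had enough reads to test only through the knockdown libraries, so it could be tested only as a rise. It is counted among the rises of this list all the same. Scaled for library size, the ratio of summed counts was 10.8. Its 95% counting interval ran from 3.38 to 54.7 (Clopper-Pearson), which leaves out spread between libraries. DESeq2 gave S1PR1 no adjusted p, because its independent filter left the gene out.

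Receptors of the insulin pathway were among those that rose. INSR, the insulin receptor, had 11.9, 15.4 and 11.5 CPM in the knockdown libraries, against 8.71, 8.47 and 6.37 CPM in the control libraries (log2 fold change 0.72 ± 0.17, SE; edgeR adjusted p = 0.0167). IGF1R, the receptor of insulin-like growth factors, rose by 0.93 ± 0.22 (edgeR adjusted p = 0.0158), or 0.62 without knockdown replicate 2. The INSR call was lost without control replicate 3 (edgeR adjusted p = 0.0757) and the IGF1R call without control replicate 1 (edgeR adjusted p = 0.0617).

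Of the other rises, named after their values were seen, GABARAPL1, of the family that coats autophagosomes, was at 0.99 ± 0.10 on the log2 scale, and the receptors of mitochondrial autophagy BNIP3L and BNIP3 were at 0.55 ± 0.10 and 0.43 ± 0.12. The BNIP3 call ended on removal of any control (edgeR adjusted p up to 0.11). GABARAPL1 and BNIP3L passed under all 14 alternatives. Other autophagy genes on the list did not pass. MAP1LC3B was at 187, 185 and 214 CPM in the knockdown libraries, against 233, 237 and 245 CPM in the control libraries (edgeR adjusted p = 0.0671), and the log2 fold changes of ULK1, ATG14 and PINK1 were -0.15, 0.09 and 0.24. RICTOR, a subunit of the complex that phosphorylates AKT, rose by 0.53 ± 0.15, but with GC and length offsets it was at 0.27 and did not pass (edgeR adjusted p = 0.0711), nor without control replicate 1 or 3 or knockdown replicate 2.

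The 5 that fell were GADD45A, a gene of the DNA damage response, EPAS1, PRDX3, SOD2 and the cell cycle inhibitor CDKN1A. GADD45A was at 22.1, 16.1 and 26.0 CPM in the knockdown libraries, against 51.0, 47.4 and 52.0 CPM in the control libraries (log2 fold change -1.23 ± 0.15, SE; edgeR adjusted p = 0.000695). SOD2 and PRDX3, antioxidant enzymes of mitochondria, fell by 0.50 ± 0.09 and 0.52 ± 0.11 on the log2 scale. GADD45A, SOD2 and PRDX3 passed under all 14 alternatives. EPAS1, a hypoxia-inducible factor, fell by 0.54 ± 0.16, a call that ended when any library but knockdown replicate 2 was removed, and with that replicate alone, where it was at -0.33 (edgeR adjusted p up to 0.14). CDKN1A, named to complete these 5, fell by 0.40 ± 0.11, and it was at -0.22 with GC and length offsets. Its call ended on removal of control replicate 1, control replicate 3 or knockdown replicate 2 (up to 0.121 for edgeR's adjusted p).

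Of 3 genes that FOXO factors are known to lower, CCND2 rose, FOXM1 fell and CCND1 did not pass. CCND2, a D-type cyclin, was low at 1.49 ± 0.254 CPM in the knockdown and 0.444 ± 0.205 CPM in the control libraries (SD, n = 3 each; edgeR adjusted p = 0.0113), and removing control replicate 1 or 3 ended its call (edgeR adjusted p up to 0.0581). CCND2 had enough reads to test only through the knockdown libraries, so it could be tested only as a rise. FOXM1, a proliferation factor, was at 271 ± 26.5 CPM in the knockdown and 354 ± 5.25 CPM in the control libraries (edgeR adjusted p = 0.0255), a call lost when any single control was left out (up to 0.0944).

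**Figure D4:**
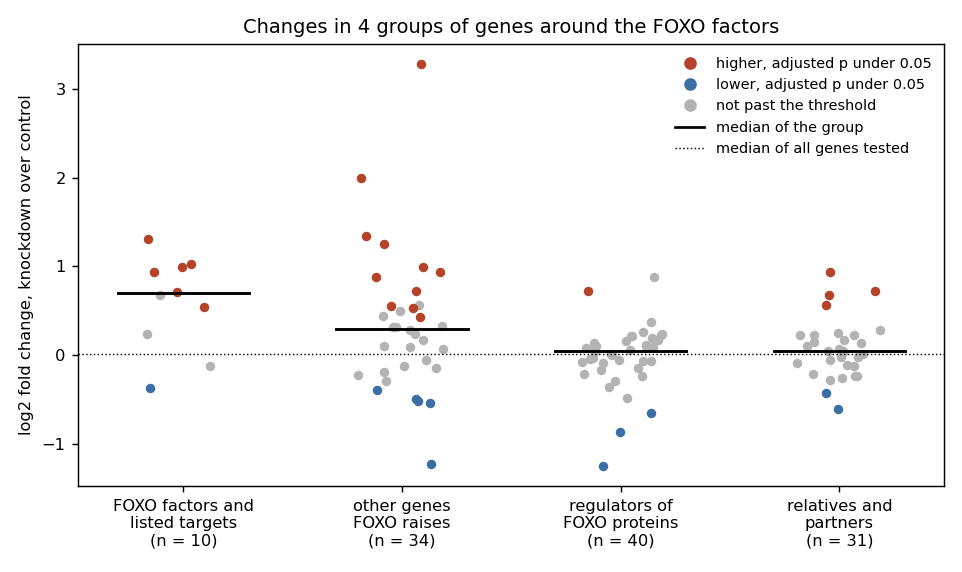
log2 fold change, knockdown over control (y axis), of every tested gene in 4 groups: the 10 listed genes, 34 other genes FOXO factors raise, 40 regulators of FOXO proteins and 31 relatives and partners of the listed genes. Thick lines are group medians (0.70, 0.29, 0.05 and 0.04) and the dotted line is the median of all genes tested (0.01).

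Genes whose products act on FOXO proteins changed in few cases. Of 40 tested, 1 rose and 3 fell, or 10% of them, against 17.3% of all genes tested, with a median log2 fold change of 0.05. SGK1, a kinase that phosphorylates FOXO proteins at the sites AKT uses, was at 15.7, 12.7 and 16.3 CPM in the knockdown libraries, against 34.0, 37.0 and 35.4 CPM in the control libraries. Its groups stood far apart (log2 fold change -1.25 ± 0.13, SE; edgeR adjusted p = 0.000191), and it passed under all 14 alternatives. The related kinase gene SGK2 was low and rose by 0.72 ± 0.23 (edgeR adjusted p = 0.0493), but it passed in only 6 of 14 alternatives. Those that lost it were RLE scaling, DESeq2, no low-count filter and leaving out any library but knockdown replicate 3 (edgeR and DESeq2 adjusted p up to 0.17).

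SFN, which encodes stratifin of the scaffold family that binds phosphorylated proteins, had 154, 104 and 118 CPM in the knockdown libraries, against 211, 213 and 265 CPM in the control libraries (log2 fold change -0.87 ± 0.15, SE; edgeR adjusted p = 0.00312). SKP2, a ligase subunit that targets FOXO1 for degradation, fell by 0.65 ± 0.11 (edgeR adjusted p = 0.00312). Both passed under all 14 alternatives. The AKT genes did not pass: AKT1 was at 151 ± 12.8 CPM in the knockdown and 185 ± 7.59 CPM in the control libraries (SD, n = 3 each; edgeR adjusted p = 0.0696), and AKT2 at 133 ± 20.5 CPM in the knockdown and 139 ± 3.79 CPM in the control libraries (edgeR adjusted p = 0.701). These are transcript levels and hold no measure of AKT activity or of FOXO phosphorylation.

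Relatives and partners of the listed genes changed about as often as genes in general. Of 31 tested, 4 rose and 2 fell, which is 19.4%, against 17.3% of all genes tested, with a median log2 fold change of 0.04. Of the rises, INSR and IGF1R are also on the list of genes FOXO factors raise and are counted there too. Without control replicate 1, 1 rose and 1 fell, when 7.03% of all genes tested passed. E2F4, the main E2F partner of RBL2, was at 104, 73.5 and 84.6 CPM in the knockdown libraries, against 133, 126 and 142 CPM in the control libraries (log2 fold change -0.61 ± 0.13, SE; edgeR adjusted p = 0.00893). TFDP2, which pairs with E2F proteins, rose by 0.56 ± 0.12 (edgeR adjusted p = 0.0114; lost without control replicate 1, 0.0573). BCOR, a corepressor that BCL6 recruits, rose by 0.68 ± 0.20 (edgeR adjusted p = 0.0396), a call that ended on removal of control replicate 1 or 3, or of knockdown replicate 1 or 2 (up to 0.151). GRB2, an adaptor that binds insulin receptor substrates, fell by 0.43 ± 0.09 (edgeR adjusted p = 0.00927; lost without control replicate 1, 0.0509).

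By the root mean square difference between centred log2 CPM profiles over the 6 libraries, PXYLP1, FSTL1 and GCNT1 were closest to FOXO1 among 10278 well expressed genes, with differences of 0.03 to 0.07. Closest to FOXO3 were PHLPP2, which encodes a phosphatase of AKT, ZNF169 and MIA3, at 0.03 to 0.04. FOXO4 had less close neighbours, RAPGEF5, VGLL3 and TNIK, at 0.09 to 0.17. This is a description of 6 libraries that share 2 groups.

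**Figure D5:**
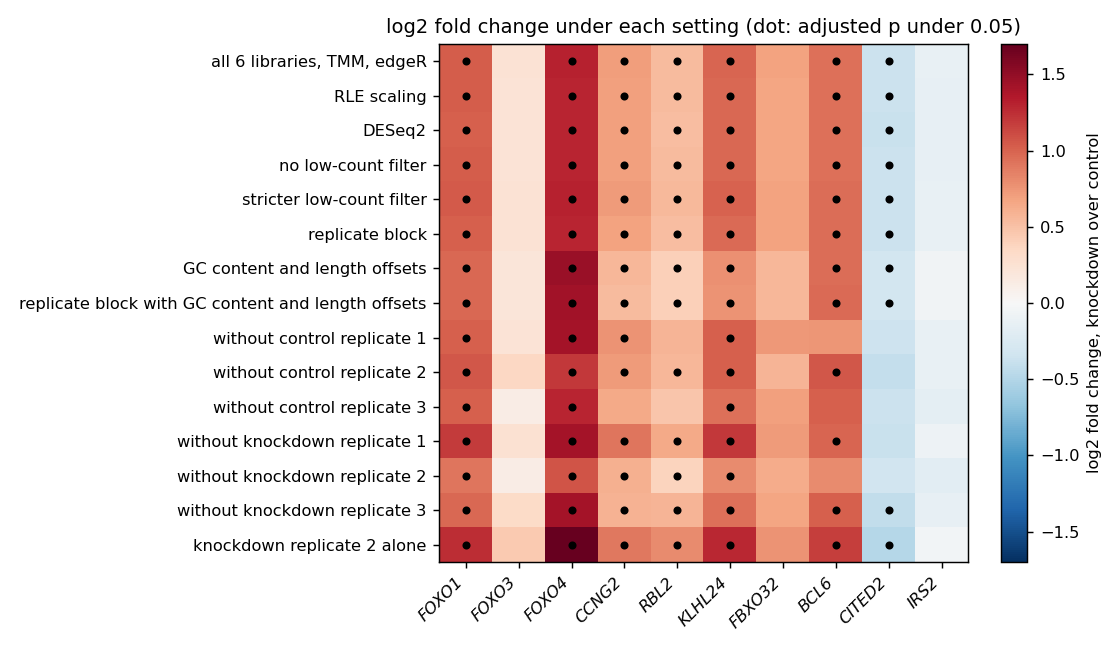
Colour gives the log2 fold change, knockdown over control, of each gene (columns) under each setting (rows), and a dot marks an adjusted p under 0.05. FOXO1, FOXO4 and KLHL24 carry a dot in every row, CITED2 loses it in 5 rows that leave out a library, and FOXO3, FBXO32 and IRS2 carry none.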

How the data were processed

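RNA sequencing of 6 libraries was analysed from whole-number counts per gene symbol, deposited by the authors without normalization. HISAT2 2.0.4 and GRCh38 are named in the submitters' processing notes. Which counting tool, annotation and strand setting were used is not given in the sources used here. Groups came from the titles, and all columns were used.

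After filterByExpr and TMM scaling, edgeR 4.0.16 (R 4.3.3) gave the quasi-likelihood test (glmQLFit, robust, and glmQLFTest), knockdown over control, with Benjamini-Hochberg adjustment over 13896 genes at 0.05. The SE is the log2 fold change divided by the square root of F. log2 CPM used a prior count of 2. Exonic lengths came from GENCODE release 29, matched by symbol. DESeq2 1.42.0, RLE scaling, other filters, GC and length offsets, a replicate block and left-out libraries were alternatives. All pairs of replicates differed by more than sampling noise (chi-square over its degrees of freedom, 2.56 to 31.6). The 10 genes, the lists and the tests were chosen with earlier results of these data known. Named genes are the 10, then up to 4 rises and 4 falls per list by size, and the 3 nearest profiles per factor; others were named after their values were seen. The tests were checked on a single simulated set of counts, in which far fewer genes changed than were called here. There 8.3% (edgeR) to 11.6% (DESeq2) of calls were false, above the nominal rate. With that setting the share does not carry over to these data. Calls close to the threshold are the least certain. Protein sequences were not used here.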

Additional observations from a re-analysis of the deposited data

How the results depend on the processing

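Of the 10 genes 7 passed with all libraries, when 17.3% of all genes tested passed. Again 7 passed with RLE scaling (17.4% of all genes tested), DESeq2 (18.7%), no low-count filter (12%) and a stricter one (18.5%). The count was also 7 with the replicate block (36.4%) and with GC and length offsets (24%), so the background differed between these settings. Leaving out 1 library gave 3 to 7 (4 without control replicate 1, 3 without control replicate 3), and 986 to 2645 over all genes (6.92% to 18.6%). It gave 11 to 18 among the other genes FOXO raises, 3 to 5 among FOXO regulators and 2 to 7 among partners. At an adjusted p under 0.01 the counts were 3 of the 10 (FOXO1, FOXO4, KLHL24), 749, 10, 3 and 2, on the same lists. No listed gene changed direction under any alternative. With knockdown replicate 2 alone, 4432 of all genes, 9 regulators and 11 partners passed. The replicate block gave 5062 of all genes (36.4%), against 2402 without it (17.3%), with 10 of 40 regulators and 11 of 31 partners. With GC and length offsets as well it gave 5611 (40.4%), 10 and 17. Deviations from the group mean correlated at 0.30 between the libraries numbered 2 and at 0.35 between those numbered 3, the best match of each. Between the libraries numbered 1 the correlation was -0.02, and neither correlated best with its own number. Whether replicate numbers pair the libraries is therefore not settled. The cause of these differences was not tested. FBXO32, BCL6 and S1PR1 rest on low counts, so that depth leaves their values with wide intervals.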
